A study of Malus domestica with 6 samples.

Results

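Ethylene synthesis and perception were followed in apple seeds through 3 gene models, *MdACO1* (MDP0000195885), *MdETR2* (MDP0000219737) and *MdETR102* (MDP0000920189). They were taken by identifier, under the names used in the study, as genes of ethylene production and response. The deposited values cover 63517 gene models in all, of which these are 3. Lateral fruit seeds, from mid-sized lateral fruitlets, were compared with central fruit seeds, from the large fruitlet in the middle of the cluster, at 20 days after petal fall (DAPF). Both came from untreated adult Golden Delicious trees in an orchard. Each type of seed had 3 biological replicates, and a replicate was a pool of seeds from different fruitlets, so the values describe pools and not single seeds. The study compared the types because lateral fruitlets are shed more readily than central ones, and it asked what their seeds show of that difference. It also states that lateral fruits are younger, and that this might account for some differences in expression. Position in the cluster and stage of development cannot be told apart in these libraries.

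Ethylene is made from methionine by way of 1-aminocyclopropane-1-carboxylate (ACC). ACC synthase makes ACC, and ACC oxidase, the enzyme that *MdACO1* encodes, turns ACC into ethylene. Ethylene receptors sit in the membrane of the endoplasmic reticulum and, in *A. thaliana*, keep the response switched off until ethylene binds to them. The receptors are thus negative regulators, and *MdETR2* and *MdETR102*, likely orthologs of *A. thaliana ETR2*, encode receptors of this kind. In fruits and at abscission zones ethylene is known as a hormone that promotes ripening and shedding.

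The sequences at hand for these genes are the primers that the study designed to measure them by qRT-PCR. The names are tied to the gene models by the identifiers that the study gives, and the primers were not matched to gene models here. Each primer runs 5′ to 3′ with the 5 bases at its 3′ end, where extension starts, in capitals.
*MdACO1* forward: gatccaagggtccgaATTTT
*MdACO1* reverse: accatccttgagaagCTGGA
*MdETR2* forward: gcatatggttggaagCCTGT
*MdETR2* reverse: tgcttatcccaagctcaAATCT
*MdETR102* forward: ctgtgtttccgcgtcTGATA
*MdETR102* reverse: cattcgagcagctgaCAAAG
The primers were 20 bases long, except the reverse primer of *MdETR2* with 22. Between the pairs of the receptors the longest run of bases in common, on either strand, was 4. The qRT-PCR time course of these genes was not analysed here, so all values below are RNAseq values of a single day. In that time course the study reports all these genes as higher in lateral than in central fruit seeds on the earliest day sampled. On the later days it reports both receptors as lower in lateral fruit seeds. For *MdACO1* it reports a rapid fall in lateral fruit seeds after the earliest day. In central fruit seeds it reports a peak of *MdACO1* before 20 DAPF, followed by a return to basal levels. It describes the receptors as seemingly coupled to ethylene synthesis in lateral fruit seeds. By qRT-PCR at 20 DAPF it gives *MdACO1* as higher in lateral fruit seeds. The directions below therefore describe that day and not lateral fruit seeds at every stage.

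Expression was given as RPKM, the number of reads on a gene model scaled to its length and to the mapped reads of that library. The libraries held between 14238640 and 37767724 reads on gene models, with lateral replicate 1 the shallowest and lateral replicate 2 the deepest. The data columns place lateral replicates 1 and 2 in sequencing lane 8, and lateral replicate 3 and all central libraries in lane 7. Lane 8 therefore held lateral libraries only. Reads with several possible positions were counted, so near-identical copies can share reads. No identifier could be matched to a name in the gene table used here, and the seed tissues (embryo, endosperm, seed coat) could not be checked by their markers.

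*MdACO1* was up-regulated and both receptor genes were down-regulated in lateral fruit seeds. By group means the level of *MdACO1* was 15.8 times as high in lateral as in central fruit seeds, whereas that of *MdETR2* was 2.44 times and that of *MdETR102* 1.59 times as high in central as in lateral fruit seeds. In limma all 3 genes were called, which required a change of 1.5-fold or more with an adjusted p no higher than 0.05 and was reached by 3.85% of the 37230 gene models tested. *MdACO1* was called higher, as were 3.39% of the gene models tested, and the 2 receptors were called lower, as were 0.459%. In whole seeds, a different share of cells that express a gene and a different amount of its RNA per cell cannot be told apart.

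*MdACO1* had 289, 226 and 264 RPKM in lateral replicates 1 to 3, against 3.08, 30.7 and 15.4 RPKM in central replicates 1 to 3. Every lateral library lay above every central one, and the lowest lateral value was 7.37 times the highest central value. Such a separation, with all lateral libraries above all central ones, occurred in 12.4% of the gene models tested. The means were 260 ± 31.4 RPKM in lateral and 16.4 ± 13.8 RPKM in central fruit seeds (SD, n = 3 each). On the log2(RPKM + 0.5) scale the difference was 4.42, with a 95% interval from 2.94 to 5.89 (limma, standard error 0.64, Benjamini-Hochberg adjusted p = 0.0060). As a mean of logs this difference equals 21.4-fold, more than the 15.8-fold by group means. Without central replicate 1, the lowest central library, the log2 difference was 3.54. Among the 1262 gene models called higher, whose median log2 fold change was 1.39, that of *MdACO1* ranked 25th with all libraries included.

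The reads behind these values were 3907, 8121 and 6070 in lateral replicates 1 to 3 and 63, 888 and 332 in central replicates 1 to 3. *MdACO1* was therefore well covered in every lateral library and thinly covered in central replicate 1 alone. Exact Poisson 95% intervals of its central level ran from 2.37 to 3.94 RPKM in replicate 1, from 28.7 to 32.8 RPKM in replicate 2 and from 13.8 to 17.2 RPKM in replicate 3. These intervals cover counting error only, since reads made by PCR are not independent molecules. They do not touch each other. The spread of reads between pools exceeded counting error for each of the 3 genes in both types of seed, with a chi-square per degree of freedom of 258 for *MdACO1* in central fruit seeds and of 5.60 to 90.0 otherwise.

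**Figure D1:**
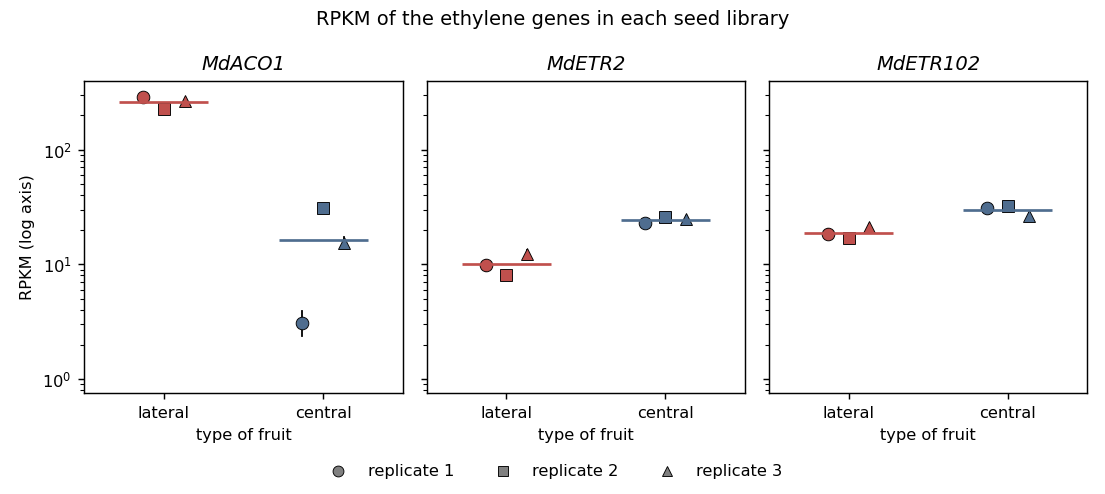
RPKM (log axis) of *MdACO1*, *MdETR2* and *MdETR102* in the 3 lateral and 3 central libraries, with symbols for replicates, horizontal lines for the group means and thin vertical lines for exact Poisson 95% intervals (hidden by the symbol where short). The lateral values of *MdACO1* lie between 226 and 289 RPKM and its central values between 3.08 and 30.7 RPKM, while both receptor genes lie lower in lateral than in central fruit seeds.

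*MdETR2* had 9.79, 8.0 and 12.4 RPKM in lateral replicates 1 to 3, against 22.8, 25.9 and 24.9 RPKM in central replicates 1 to 3. The groups did not overlap, and the lowest central value was 1.84 times the highest lateral value. All lateral libraries lay below all central ones in 10.9% of the gene models tested. Its means were 10.1 ± 2.22 RPKM in lateral and 24.5 ± 1.56 RPKM in central fruit seeds (SD, n = 3 each), resting on 323 to 700 reads per lateral and 1137 to 1825 reads per central library. The log2 fold change was -1.26, with a 95% interval from -1.61 to -0.92 (limma, standard error 0.15, Benjamini-Hochberg adjusted p = 0.0021). The fall was steeper than the median of the 171 gene models called lower, -0.83, and ranked 26th among them.

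*MdETR102* had 18.4, 17.1 and 21.0 RPKM in lateral replicates 1 to 3, against 31.0, 32.2 and 26.4 RPKM in central replicates 1 to 3. Its groups did not overlap either, but stood closer together, the lowest central value being 1.26 times the highest lateral value. The means were 18.8 ± 1.95 RPKM in lateral and 29.9 ± 3.08 RPKM in central fruit seeds (SD, n = 3 each), with 456 to 1126 reads per lateral and 1041 to 1709 reads per central library. The log2 fold change was -0.65, with a 95% interval from -0.91 to -0.40 (limma, standard error 0.11, Benjamini-Hochberg adjusted p = 0.013). This is close to the limit of 1.5-fold, and the gene ranked 143rd by the size of its fall among the 171 gene models called lower.

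**Figure D2:**
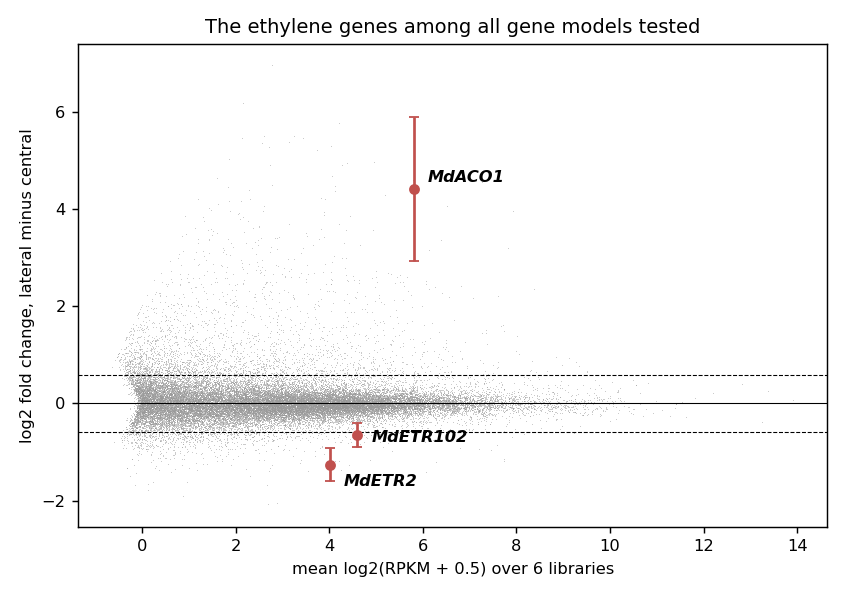
Log2 fold change (lateral minus central) against the mean log2(RPKM + 0.5) over the 6 libraries for the 37230 gene models tested (grey) and the 3 ethylene genes (red, with 95% intervals from limma); dashed lines mark 1.5-fold. *MdACO1* stands at 4.42, *MdETR2* at -1.26 and *MdETR102* at -0.65, just past the lower dashed line.

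The calls of the 3 genes were not equally firm. *MdETR2* passed the limits with each library left out in turn, with a log2 fold change between -1.42 and -1.12. *MdETR102* no longer passed without central replicate 1 (adjusted p = 0.059) or without central replicate 2 (adjusted p = 0.051, both from limma). *MdACO1* passed in all 6 of these fits, but its log2 fold change was 3.54 without central replicate 1 and 5.10 without central replicate 2. Baggerly's test, which the study used, called *MdACO1* and *MdETR2* on the deposited values and gave *MdETR102* an adjusted p of 0.25. With the lane as a covariate, lateral replicate 3 alone was set against the central libraries, and the log2 fold changes were 4.45 for *MdACO1*, -0.95 for *MdETR2* and -0.50 for *MdETR102*. The lateral arm of that fit is 1 library, assumed to vary like the others, and the spread came from the 3 central libraries and from lateral replicates 1 and 2. The adjusted p from limma was then 0.099 for *MdACO1*, 0.045 for *MdETR2* and 0.28 for *MdETR102*, values that do not rank the genes by how firm their calls are.

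**Figure D3:**
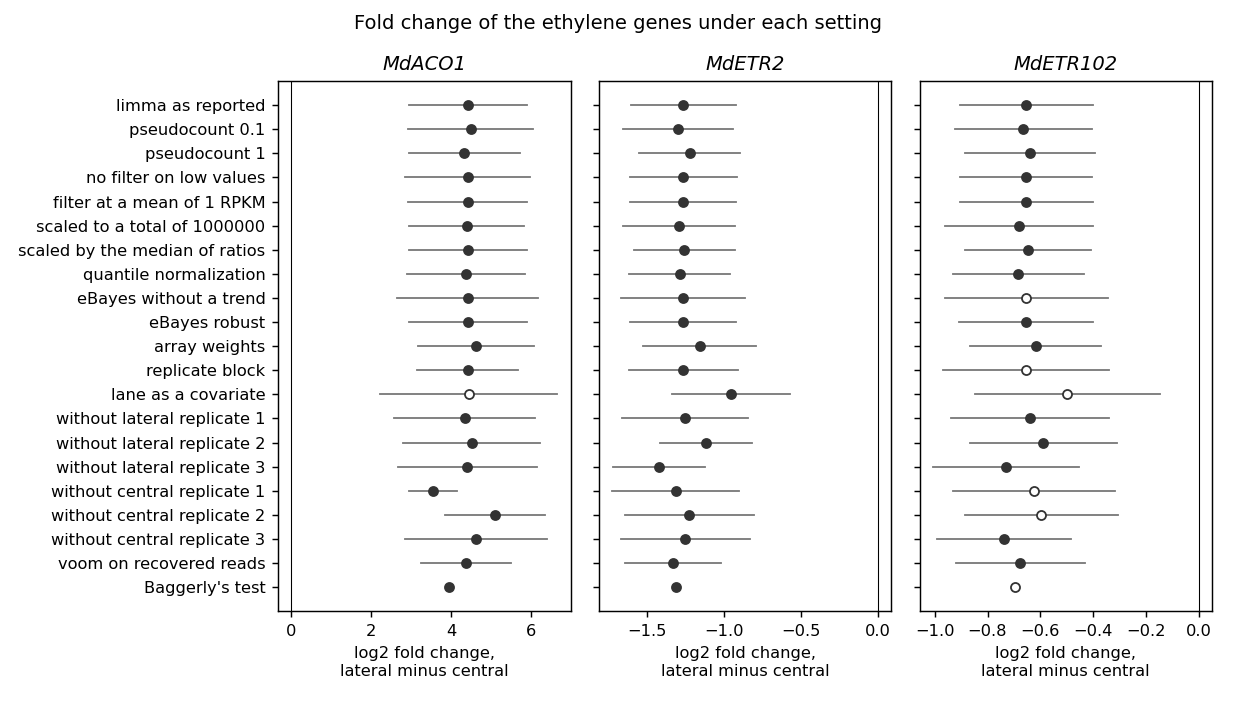
Log2 fold change (lateral minus central) of each ethylene gene in limma as reported and under 20 other settings, with 95% intervals where the fit gives one; filled circles passed the limits of adjusted p and fold change and open circles did not. *MdETR2* is filled throughout, *MdACO1* is open with the lane as a covariate, and *MdETR102* is open under 6 settings.

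The place of the 3 genes among all 63517 gene models moved with the type of seed. Counted from the highest RPKM, *MdACO1* ranked 459, 670 and 523 in lateral replicates 1 to 3, against 23299, 6042 and 10692 in central replicates 1 to 3. It was thus among the top 1.05% of gene models in every lateral library, and in the central libraries it varied from the upper to the middle part of the list. *MdETR2* ranked 14778, 16125 and 12728 in lateral replicates 1 to 3, against 7785, 7130 and 7252 in central replicates 1 to 3. *MdETR102* ranked 9643, 10016 and 8618 in lateral replicates 1 to 3, against 5856, 5755 and 6875 in central replicates 1 to 3. In central fruit seeds the receptors therefore stood above *MdACO1* in 5 of the 6 possible pairs of a receptor and a library, the exception being *MdETR2* in replicate 2. In lateral fruit seeds *MdACO1* stood above both receptors in all libraries.

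The balance between the receptors differed between the types of seed. A ratio of genes of the same library does not depend on the scaling between libraries, and RPKM is per length, so levels of different genes can be set side by side. Reads shared between the receptors would alter their ratio, and such sharing was not tested. The ratio of *MdETR2* to *MdETR102* was 0.532, 0.467 and 0.592 in lateral replicates 1 to 3, against 0.735, 0.802 and 0.943 in central replicates 1 to 3. *MdETR102* was the more abundant receptor RNA in all 6 libraries, and *MdETR2* came nearest to it in central replicate 3. *MdETR2* made up 34.6 ± 2.68% of the summed RPKM of both receptors in lateral and 45.1 ± 3.13% in central fruit seeds (SD, n = 3 each). The log2 ratio, taken after adding 0.5 to each level, was lower by 0.61 in lateral fruit seeds (by 0.64 with nothing added). The groups did not overlap, and the exact permutation test (2-sided) gave p = 0.1. With 3 libraries in each group this test can give no smaller p, so it cannot reach 0.05.

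The sum of both receptors was 28.2, 25.1 and 33.4 RPKM in lateral replicates 1 to 3, against 53.8, 58.1 and 51.3 RPKM in central replicates 1 to 3. The mean sum in central fruit seeds was 1.88 times that in lateral fruit seeds. *MdACO1* reached 10.2, 9.01 and 7.91 times this sum in lateral replicates 1 to 3, but only 0.0572, 0.528 and 0.301 times in central replicates 1 to 3. The level of *MdACO1* thus exceeded the summed level of both receptor genes in every lateral library and was below it in every central library. Other genes of ethylene synthesis and perception were not part of this ratio. The log2 ratio, taken after adding 0.5 to *MdACO1* and to the sum, was 3.15 ± 0.18 in lateral and -2.18 ± 1.56 in central fruit seeds (SD, n = 3 each). The difference was 5.33 (5.43 with nothing added), with p = 0.1 in the same exact permutation test.

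**Figure D4:**
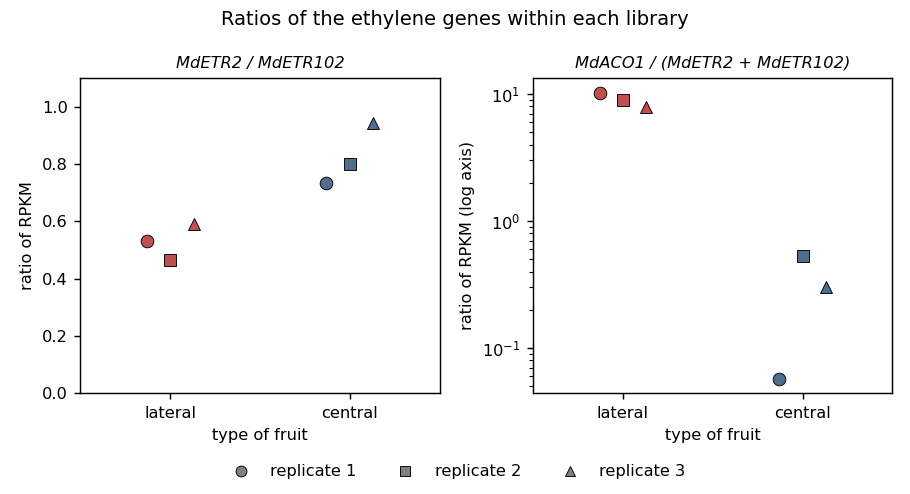
Ratio of the RPKM of *MdETR2* to that of *MdETR102* (left, linear axis) and of *MdACO1* to the sum of both receptors (right, log axis) in each library, with symbols for replicates. The receptor ratio lies between 0.467 and 0.592 in lateral and between 0.735 and 0.943 in central fruit seeds, and the ratio of *MdACO1* to the receptors is above 7.9 in all lateral and below 0.53 in all central libraries.

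Within a type of seed the genes did not spread alike. In central fruit seeds the highest library of *MdACO1* had 9.96 times the RPKM of the lowest, whereas the same ratio was 1.13 for *MdETR2* and 1.22 for *MdETR102*. On the log2(RPKM + 0.5) scale the SD of *MdACO1* over the central libraries was 1.60. Of 10351 gene models with a central mean within 2-fold of that of *MdACO1*, 2 had a larger SD, and the median was 0.13. In lateral fruit seeds the SD of *MdACO1* was 0.18, larger than the median of 0.10 at its level but exceeded by 16.8% of the gene models there. *MdETR2* had the widest spread of the 3 genes over the lateral libraries, with an SD of 0.30, and a narrow one of 0.091 over the central libraries. The SD of *MdETR102* was alike in both, 0.14 in lateral and 0.15 in central fruit seeds.

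In the lateral libraries both receptors had the same order, highest in replicate 3 and lowest in replicate 2. *MdACO1* was lowest in replicate 2 as well, but highest in replicate 1. All 3 genes were thus at their lateral minimum in replicate 2, the deepest library, with deviations from the lateral mean of -0.19 for *MdACO1*, -0.29 for *MdETR2* and -0.13 for *MdETR102* on the log2(RPKM + 0.5) scale. The part of the depth in this order was not tested. In the central libraries *MdACO1* and *MdETR2* had the same order, highest in replicate 2 and lowest in replicate 1. Library depth had that order too among the central libraries, whereas *MdACO1* had the reverse order of depth among the lateral ones. The part of the depth was not tested here either. *MdACO1* deviated in the central libraries by -1.76 in replicate 1 and by 1.36 in replicate 2, *MdETR2* by -0.10 and 0.077. *MdETR102* was highest in central replicate 2 too but lowest in replicate 3. In neither type of seed did a receptor have the reverse order of *MdACO1*, although both receptors ran opposite to it between the types. With 3 libraries a type no correlation was computed.

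**Figure D5:**
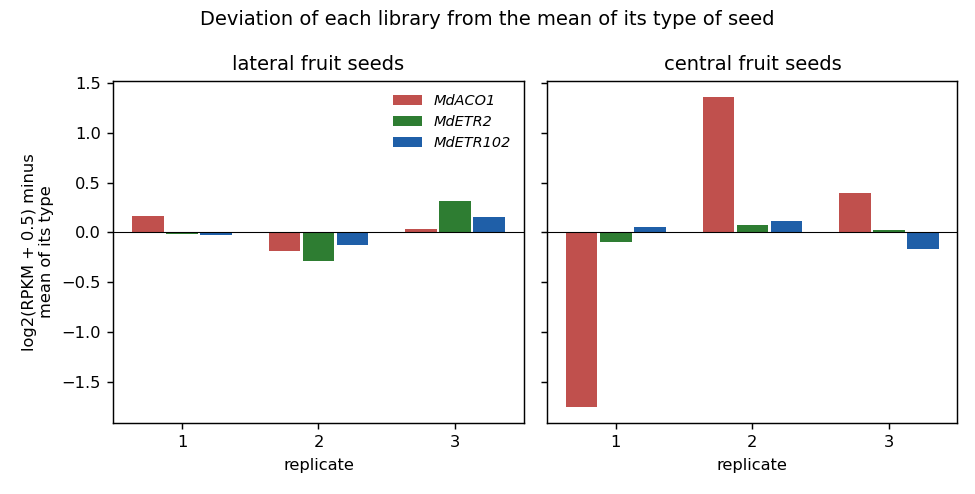
Deviation of log2(RPKM + 0.5) from the mean of its type of seed for *MdACO1* (red), *MdETR2* (green) and *MdETR102* (blue) in replicates 1 to 3 of lateral (left) and central (right) fruit seeds. The bars of *MdACO1* reach from -1.76 to 1.36 in central fruit seeds, while no bar of a receptor exceeds 0.31 in size.

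Among the genes that the study names by identifier, 2 others are tied to ethylene, which makes a list of 5. MDP0000848905 is the putative ortholog of *A. thaliana EBP*, an ethylene-responsive transcription factor, and MDP0000258562 the likely ortholog of *CEJ1/DEAR1*, a transcription factor that responds to ethylene and jasmonate together. Both were called higher in lateral fruit seeds, so 3 of the 5 were called higher and 2, the receptors, lower. Of all gene models tested, 3.39% were called higher and 0.459% lower. The study named the 2 transcription factors from the genes up-regulated in these same libraries, so their direction was fixed by that choice and is no independent evidence. It also lists *MdACO1* as significantly up-regulated in lateral fruit seeds, so that direction was known beforehand. MDP0000848905 had 412, 172 and 278 RPKM in lateral replicates 1 to 3 and 9.99, 10.3 and 12.1 RPKM in central replicates 1 to 3. MDP0000258562 had 11.9, 5.83 and 9.44 RPKM in lateral replicates 1 to 3 and 1.34, 1.08 and 1.27 RPKM in central replicates 1 to 3. Both shared the lateral order of *MdACO1*, highest in replicate 1 and lowest in replicate 2, which is the reverse order of depth among the lateral libraries. Neither shared its wide spread over the central libraries, where the highest value was 1.21 and 1.24 times the lowest.

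Gene models with a similar course were sought by Pearson's r of log2(RPKM + 0.5) over the 6 libraries, as a description only, since a difference between the types of seed alone gives high values. An r of at least 0.95 was reached with *MdACO1* by 691, with *MdETR2* by 243 and with *MdETR102* by 351 of the other 37227 gene models tested. Nearest to *MdACO1* were MDP0000942873 (r = 0.9992) and MDP0000803976 (r = 0.9990), which the files do not pair with names. MDP0000942873 had 29.5, 29.1 and 29.1 RPKM in lateral replicates 1 to 3 and 13.6, 20.4 and 17.8 RPKM in central replicates 1 to 3. MDP0000803976 had 5.03, 4.20 and 4.65 RPKM in lateral replicates 1 to 3 and 0.297, 1.39 and 1.02 RPKM, or 5, 33 and 18 reads, in central replicates 1 to 3. Both shared the central order of *MdACO1*, which their choice by r favours, though over a smaller range.

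Nearest to *MdETR2* was MDP0000822921 (r = 0.9958), with 1.98, 1.63 and 2.23 RPKM in lateral replicates 1 to 3 and 3.40, 4.05 and 3.73 RPKM in central replicates 1 to 3. Nearest to *MdETR102* was MDP0000270189 (r = 0.9993), with 11.2, 10.2 and 12.8 RPKM in lateral replicates 1 to 3 and 18.7, 19.4 and 15.7 RPKM in central replicates 1 to 3. Each had the same order of libraries within both types of seed as the receptor it was matched to, which its choice by r favours. Reads shared between near-identical copies would also raise r. Such sharing was not tested for any of the gene models matched by r.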

How the data were processed

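RNA of lateral and central fruit seeds (3 pools each) was sequenced as single-end reads. The authors checked them with FastQC, trimmed them, mapped them to version 1.0 of the Malus x domestica genome and deposited 1 RPKM value per gene model and library, computed in the CLC Genomics Workbench (version not given in the sources used here) and not scaled between libraries. Groups and replicate numbers are those of the sample titles. Types of seed were compared with limma 3.58.1 in R 4.3.3 (lmFit, eBayes with a trend) on log2(RPKM + 0.5), a scale on which changes of low genes are understated. It covered the 37230 gene models whose mean reached 0.5 RPKM in lateral or in central fruit seeds (all 3 ethylene genes among them), with Benjamini-Hochberg adjustment over these and without a block. Calls needed a change of 1.5-fold or more with an adjusted p no higher than 0.05.

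Whole reads were recovered by trying gene lengths between 60 and 30000 bases until the product of RPKM, length and the library's mapped reads, as the study states them, was whole within 0.001 in every library. This worked for all 55261 gene models above 0, and 97.4% of the lengths were multiples of 3, so they are coding lengths (945, 2304 and 1731 bases for *MdACO1*, *MdETR2* and *MdETR102*). Baggerly's test compared shares of the summed RPKM with a normal distribution. Python 3.11.15, numpy 2.4.6, pandas 2.3.3, scipy 1.17.1 and matplotlib 3.10.9 were used otherwise. Only the main limma fit, Baggerly's test and the recovery of reads were tested on simulated data.

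The members, lists and alternatives were chosen with earlier results of these data known. Besides the members, genes named are the other ethylene genes of the study and the gene models with the highest Pearson's r, 2 for *MdACO1* and 1 for each receptor. Alternatives were other pseudocounts (0.1, 1 and, for the ratios, none), filters, scalings and eBayes settings, array weights, a block, the lane, each library left out, Baggerly's test and voom on recovered reads.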

Additional observations from a re-analysis of the deposited data

How the results depend on the processing

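All 3 log2 fold changes kept their sign under 20 alternatives each. *MdETR2* was called under all of them, and *MdACO1* under all except the lane as a covariate (4.45, called no longer), in which the lateral arm is 1 library. *MdETR102* lost its call under 6, in eBayes without a trend (-0.65, adjusted p = 0.053 from limma), with the lane as a covariate (-0.50), in Baggerly's test (-0.70), with the replicate block and without central replicate 1 or 2. The cause was not tested. With each library left out in turn, its log2 fold change lay between -0.74 and -0.59. The log2 ratio of *MdETR2* to *MdETR102* then differed between the types by -0.69 to -0.51. That of *MdACO1* to both receptors differed by 4.45 without central replicate 1 and by 5.96 without central replicate 2, against 5.33 with all libraries.

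Same-numbered libraries did not deviate together (r = 0.012, -0.12 and -0.13 over gene models), and for 1 of the 3 lateral libraries the highest r was with its own number. With the replicate block *MdETR102* had a log2 fold change of -0.65 and an adjusted p of 0.051 from limma, *MdACO1* and *MdETR2* were called, and 1035 gene models were called higher and 96 lower.

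Against 1262 called higher and 171 called lower, the numbers were 392 and 39 with the lane as a covariate and 484 and 39 in Baggerly's test. Without a filter 112 were called lower. With a library left out, between 875 and 1151 were called higher and between 93 (without lateral replicate 3) and 141 lower, with 101 without central replicate 1 and 112 without central replicate 2. Depth limits *MdACO1* most in central replicate 1, with 63 reads.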
